A study of Mus musculus with 4 samples.

Results

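The genes described here encode the signalling chain of the transforming growth factor beta (TGF-β) superfamily, comprising its TGF-β, bone morphogenetic protein (BMP) and activin arms. They are 37 named genes, grouped by role into ligands, latent binding proteins, receptors, SMAD proteins, inhibitors and Id target genes. Probe sets annotated with exactly 1 of these symbols were used, and where a gene had several the brightest on average over the arrays was taken. By this rule 36 of the 37 genes were measured, among 18782 genes in all. Tgfbr2, the type II TGF-β receptor, lay only on a probe set annotated with several genes and was not analysed here.

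Alveolar macrophages, which live in the airspaces and clear surfactant, were sorted from the lungs of adult mice on the C57BL/6 background. KO mice carried the CD11c-Cre transgene and floxed Pparg alleles (CD11cCre/PPARg fl/fl), and WT mice carried the same floxed alleles without the transgene (PPARg fl/fl). Each genotype had 2 arrays, and each array held cells pooled from 2 mice, so the design allowed 2 replicates against 2. The CD11c promoter is active in other CD11c-bearing cells as well as in alveolar macrophages. Sorted cells were viable and autofluorescent, high in CD11c, and bore CD45 and Siglec-F. The gate on CD11b differed, high in KO and low in WT, so genotype and gate cannot be told apart. The labels describe the KO cells as arrested immature precursors and the WT cells as mature.

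TGF-β family ligands are secreted as dimers, and TGF-β itself is held in a latent form in the matrix or at the cell surface until it is released. Some latent binding proteins anchor this form in the matrix. A ligand joins type II and type I receptor kinases, and the type I receptor phosphorylates receptor-regulated SMADs, which enter the nucleus with the common SMAD, Smad4. Smad2 and Smad3 carry TGF-β and activin signals, while Smad1, Smad5 and Smad9 carry BMP signals. Inhibitory SMADs, SMURF ubiquitin ligases and the SKI and TGIF corepressors restrain the pathway, and the inhibitors of DNA binding Id1 and Id3 are direct BMP target genes. In the lung, TGF-β signalling is known to be needed for alveolar macrophage development and to act upstream of Pparg.

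Pparg measured 9.59 and 9.73 in KO and 9.69 and 9.75 in WT on the log2 scale (limma adjusted p = 0.79). The position of its probes on the transcript was not used here, so the level is no check of the deletion. The gate genes followed the sort for CD11b, with Itgam at 8.87 and 8.61 in KO and 3.10 and 2.87 in WT (adjusted p = 1.25e-05). Siglecf, at 6.01 and 6.48 in KO and 9.59 and 9.44 in WT, was lower in KO (adjusted p = 1.64e-04) although both gates required the protein. Ptprc, the CD45 gene, was also lower, at 9.43 and 9.52 in KO and 10.05 and 9.94 in WT (adjusted p = 0.0212). Itgax, the CD11c gene, measured 10.58 and 10.6 in KO and 10.37 and 10.33 in WT and did not pass (adjusted p = 0.168). The macrophage marker genes Adgre1 (9.59 ± 0.15 in KO, 9.51 ± 0.05 in WT) and Cd68 (11.1 ± 0.06 in KO, 10.9 ± 0.01 in WT; SD, n = 2 each) were well above the array median of 3.14 on all 4 arrays. In a sorted population, a change in the share of a kind of cell and a change in RNA per cell cannot be told apart. Levels are log2 RMA values, differences are KO minus WT with the standard error (SE) of the limma fit, and a gene was called where the adjusted p was under 0.05 over all 18782 genes.

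Of the 36 measured genes, 8 were higher in KO and 5 lower, and 23 did not pass the test. The genes higher in KO were Eng, Ltbp3, Inhba, Smurf1, Tgif1, Smad7, Smad6 and Bmp2, and the genes lower in KO were Acvr1b, Tgfb2, Id1, Smad1 and Acvrl1. The called members were 36.1% of those measured (22.2% higher, 13.9% lower). Over all genes the test called 14.3% (7.41% higher, 6.86% lower). Many genes on the array were dim, and among genes above the array median in at least 1 group the called share was 44.4% of 27 members against 24.9% of 10348 genes. For higher genes these shares were 25.9% and 12.9%, and for lower genes 18.5% and 12.1%. The median difference was 0.04 over the members and -0.015 over all genes. The KO and WT arrays did not overlap for 26 of 36 members, or 72.2%, against 55.3% of all genes. This comparison was not matched for brightness. With KO replicate 1 left out, Ltbp3, Inhba, Tgif1, Smad7, Bmp2 and Tgfb2 lost their calls. Id3, not called with all arrays, gained one there. With KO replicate 2 left out, Ltbp3, Tgif1, Smad7, Bmp2, Tgfb2 and Acvrl1 lost theirs.

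**Figure D1:**
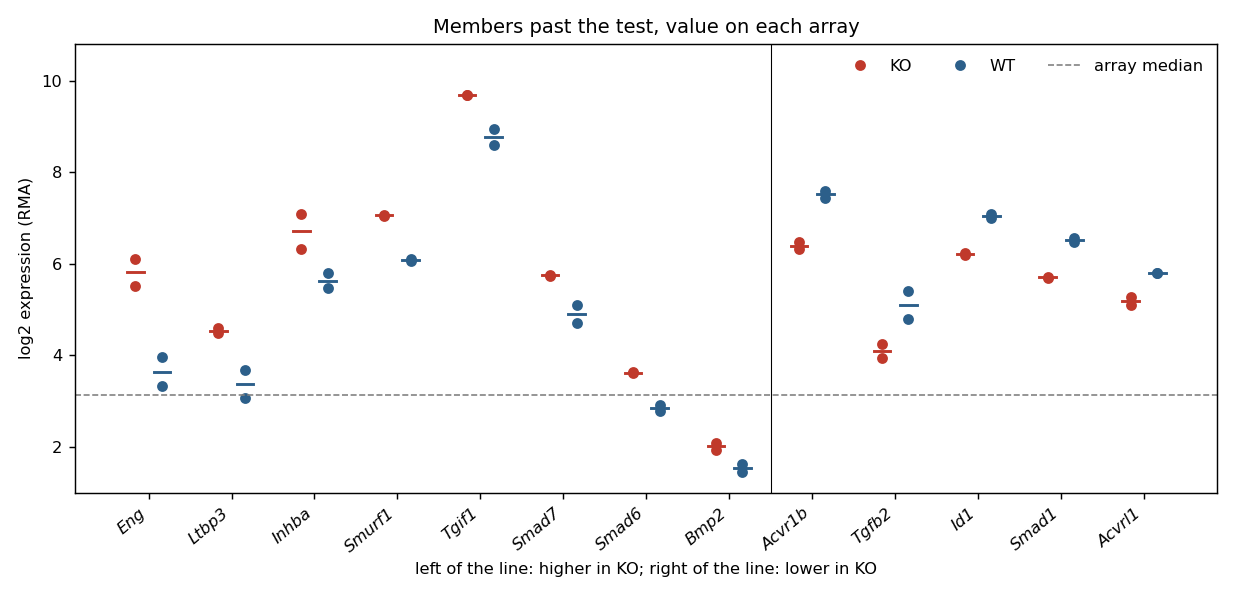
Log2 expression on each array for the 13 called members, KO in red left of WT in blue, with points for arrays and short bars for the mean of 2 arrays; the dashed line is the array median of 3.14. The KO and WT points of each of these genes do not overlap, and Bmp2 lies below the dashed line on all 4 arrays.

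Of 7 ligand genes, Inhba and Bmp2 were higher in KO, Tgfb2 was lower, and Tgfb1, Tgfb3, Bmp4 and Bmp6 did not pass the test. Inhba, which encodes the βA subunit of activin A, measured 7.09 and 6.32 in KO and 5.47 and 5.80 in WT. Both KO arrays lay above both WT arrays, while the KO arrays differed from each other by more than the WT arrays did. The difference was 1.07 ± 0.25 (SE), a 2.11-fold increase (adjusted p = 0.0399), and the call was lost without KO replicate 1 (0.69; adjusted p = 0.103) or WT replicate 1 (adjusted p = 0.14).

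Tgfb2, the TGF-β2 gene, measured 3.94 and 4.25 in KO and 4.79 and 5.41 in WT. All 4 values were above the array median and both KO arrays lay below both WT arrays. It was 2.01-fold lower in KO (-1.01 ± 0.22; adjusted p = 0.0292). Leaving out KO replicate 1 gave an adjusted p of 0.166 and leaving out KO replicate 2 one of 0.0838. Tgfb1, the isoform that leukocytes chiefly make, was bright in both groups, at 9.59 and 9.79 in KO and 9.61 and 9.71 in WT. Its arrays overlapped and its difference of 0.03 had a 95% interval of -0.24 to 0.31 (adjusted p = 0.9), so a smaller change than these bounds was not resolved. Tgfb3, with a difference of 0.0045 (adjusted p = 0.984), lay below the array median on all arrays.

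Among the BMP genes, Bmp2 read 2.10 and 1.93 in KO and 1.46 and 1.63 in WT. Its difference of 0.47 ± 0.11 passed the test narrowly (adjusted p = 0.0438), all 4 values were below the array median, and the call was lost whichever array was left out, with adjusted p between 0.0569 and 0.201. Bmp4 (2.14 ± 0.13 in KO, 2.14 ± 0.08 in WT; SD, n = 2 each) was also below the median throughout. Bmp6, a ligand that regulates hepcidin in the liver, measured 3.21 and 3.03 in KO and 2.98 and 3.01 in WT (adjusted p = 0.553). Values this low do not show whether these BMP genes were expressed.

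Latent TGF-β binding proteins are secreted relatives of the fibrillins, and some of these binding proteins anchor latent TGF-β in the matrix. Of their 4 measured genes, Ltbp3 was higher in KO. Ltbp3 measured 4.59 and 4.48 in KO and 3.07 and 3.68 in WT. The lower WT array lay just below the array median and the KO arrays well above it. The increase was 2.24-fold (1.16 ± 0.20; adjusted p = 0.0133), and did not pass with KO replicate 1 left out (adjusted p = 0.0931) or KO replicate 2 left out (0.0734). Ltbp1, Ltbp2 and Ltbp4 lay below the array median on all 4 arrays, with differences between -0.09 and 0.23 and adjusted p from 0.425 to 0.997.

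Of the 5 type I receptor kinase genes measured, 2 were lower and 0 higher. This was 40% called, against 24.9% of all genes above the array median in at least 1 group. Acvr1b and Acvrl1 were lower in KO and Tgfbr1, Acvr1 and Bmpr1a did not pass. Acvr1b, the activin receptor ALK4, measured 6.32 and 6.47 in KO and 7.44 and 7.59 in WT. Both KO arrays lay below both WT arrays, and the gene was 2.17-fold lower in KO (-1.12 ± 0.11; adjusted p = 0.00157). It passed whichever array was left out (adjusted p from 0.00416 to 0.018) and against a difference of 0.5 (adjusted p = 0.0185).

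Acvrl1 encodes ALK1, a receptor for BMP9 and BMP10 best known from endothelium. It measured 5.27 and 5.10 in KO and 5.80 and 5.80 in WT. Both KO arrays were lower, by 1.53-fold (-0.62 ± 0.10; adjusted p = 0.0126), and the adjusted p was 0.0762 without KO replicate 2. Tgfbr1, the type I TGF-β receptor ALK5, was bright and differed by 0.04 (95% interval -0.22 to 0.30; adjusted p = 0.858), with 9.41 and 9.59 in KO and 9.49 and 9.43 in WT. Acvr1, the BMP and activin receptor ALK2, measured 5.59 and 5.77 in KO and 5.83 and 5.82 in WT (adjusted p = 0.469).

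Bmpr1a, the BMP receptor ALK3, measured 5.91 and 5.77 in KO and 5.55 and 5.13 in WT. The KO arrays were both above the WT arrays, but the difference of 0.50 ± 0.16 did not pass (adjusted p = 0.0964). It passed without WT replicate 1 (0.71; adjusted p = 0.028). None of the 3 measured type II receptor genes passed the limma test over all genes, and 0 of them had an unadjusted p under 0.05. Bmpr2 (8.23 ± 0.03 in KO, 8.02 ± 0.02 in WT; SD, n = 2 each) was higher on both KO arrays by 0.20 (95% interval -0.02 to 0.43; adjusted p = 0.236). The activin receptor genes Acvr2a and Acvr2b differed by -0.01 and -0.02 (adjusted p = 0.979 for Acvr2a and 0.911 for Acvr2b).

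The co-receptor gene Eng had the largest difference of the 36 members. Endoglin, its product, is a transmembrane glycoprotein that presents BMP9 and TGF-β to ALK1 and is abundant on endothelium and on activated macrophages. Eng measured 6.12 and 5.52 in KO and 3.33 and 3.97 in WT. Both KO arrays lay well above both WT arrays, and the replicates of each group were also apart. The increase was 4.50-fold (2.17 ± 0.27; adjusted p = 0.00363), and the gene passed under all 13 alternative settings. Betaglycan, encoded by Tgfbr3, lay below the array median on all arrays, at 2.44 ± 0.09 in KO and 2.53 ± 0.03 in WT (SD, n = 2 each; adjusted p = 0.652). Eng was thus higher and Acvrl1 lower in KO, although their products act in the same receptor complex.

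**Figure D2:**
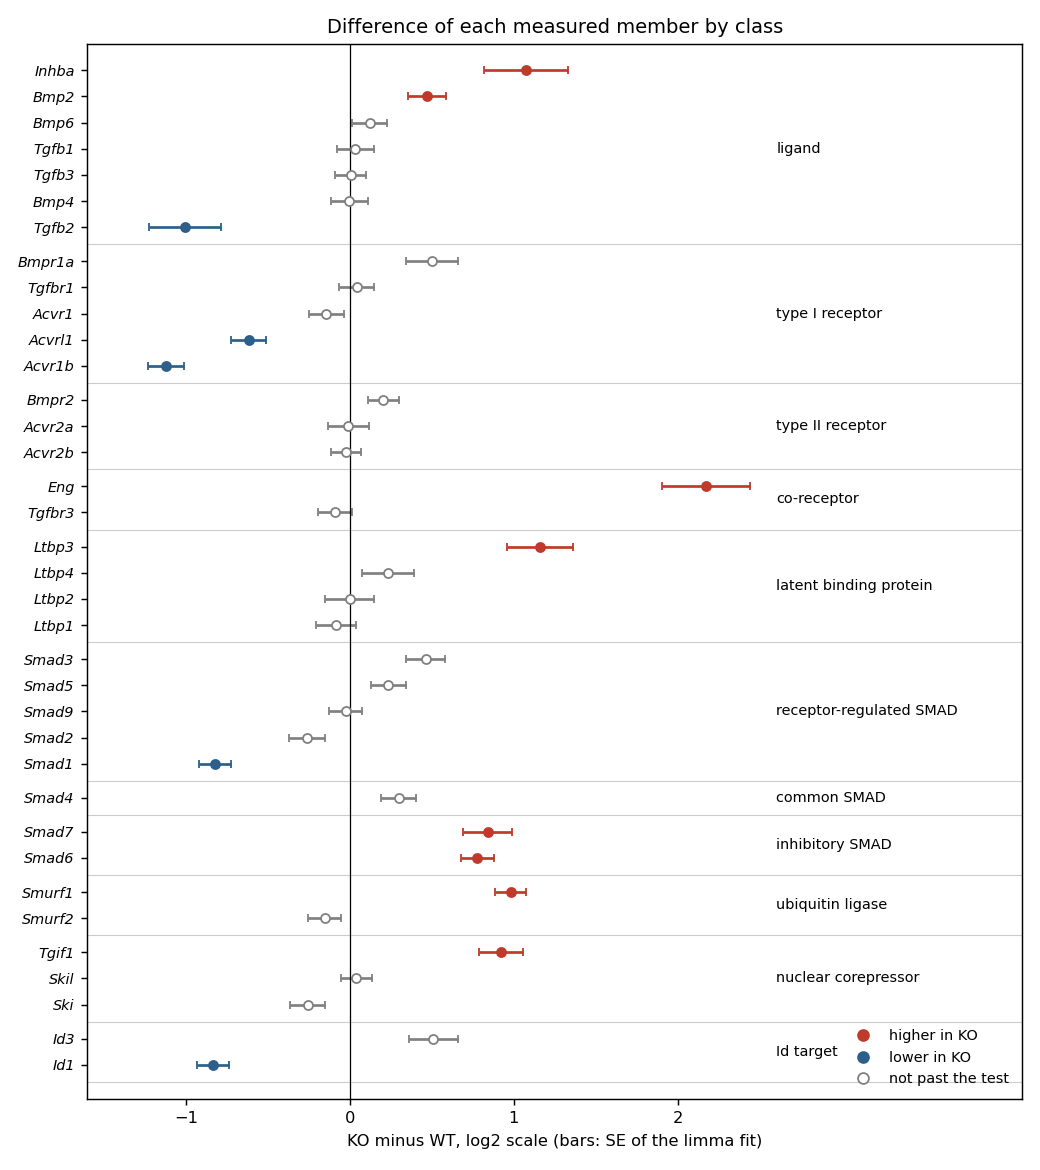
Difference between KO and WT for the 36 measured members, grouped by role, on the log2 scale; points are limma estimates and bars their SE, with filled red for genes called higher in KO, filled blue for genes called lower and open grey for the rest. Eng stands alone at 2.17, the inhibitory SMAD genes lie right of 0, and ligands and type I receptors lie on both sides.

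Among the signal-carrying SMADs, Smad1 was the only called gene of 5 receptor-regulated members, and Smad4 did not pass. Smad1, a BMP effector, measured 5.70 and 5.71 in KO and 6.48 and 6.57 in WT. Replicates lay close together and the KO arrays were both lower, by 1.77-fold (-0.82 ± 0.10; adjusted p = 0.00314). The call was kept whichever array was left out (adjusted p from 0.0105 to 0.0299). Smad5, which carries the same signals, was above WT on both KO arrays, at 6.004 and 6.17 in KO and 5.83 and 5.87 in WT, but did not pass (0.24 ± 0.11; adjusted p = 0.226). Smad9 was below the array median on all arrays.

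Of the TGF-β and activin effectors, Smad3 measured 3.74 and 3.997 in KO and 3.38 and 3.43 in WT. Both KO arrays were higher, and the difference of 0.46 ± 0.12 fell just short of the threshold (adjusted p = 0.0523). With dim genes left out of the test it passed (adjusted p = 0.0403). Smad2 differed by -0.26 ± 0.11 with both KO arrays lower (adjusted p = 0.208). Smad4, the partner shared by both arms, measured 7.99 and 8.05 in KO and 7.63 and 7.81 in WT, a difference of 0.30 (95% interval 0.04 to 0.56; adjusted p = 0.139).

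Both inhibitory SMAD genes were higher in KO. Smad6, which chiefly restrains BMP signals, measured 3.63 and 3.62 in KO and 2.79 and 2.91 in WT. The WT values lay below the array median and the KO values above it, a 1.71-fold increase (0.78 ± 0.10; adjusted p = 0.00423) that held whichever array was left out (adjusted p from 0.00945 to 0.0373). Smad7, which binds type I receptors of both arms and recruits SMURF ligases to them, measured 5.74 and 5.75 in KO and 5.11 and 4.70 in WT. The increase was 1.79-fold (0.84 ± 0.15; adjusted p = 0.0144). It fell short with KO replicate 1 left out (adjusted p = 0.0864) and with KO replicate 2 left out (0.0876).

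The ubiquitin ligase gene Smurf1, whose product targets BMP SMADs and receptors for degradation, measured 7.06 and 7.05 in KO and 6.05 and 6.10 in WT. Its replicates lay close together and the groups differed by 0.98 ± 0.09, a 1.97-fold increase (adjusted p = 0.00141) that passed under all 13 alternative settings. Smurf2, its close relative, measured 7.55 and 7.70 in KO and 7.75 and 7.80 in WT and did not pass (-0.15 ± 0.10; adjusted p = 0.424). A second probe set of Smurf2 was dimmer and did not enter the test.

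Of the 3 corepressor genes, Tgif1 was higher in KO. TGIF1 is a homeodomain protein that binds Smad2 and Smad3 and recruits histone deacetylases. It measured 9.68 and 9.69 in KO and 8.59 and 8.93 in WT, a 1.89-fold increase (0.92 ± 0.14; adjusted p = 0.00723). Both KO arrays lay above both WT arrays, and the adjusted p was 0.056 with KO replicate 1 left out and 0.0558 with KO replicate 2 left out. Ski measured 8.28 and 8.38 in KO and 8.52 and 8.65 in WT, lower on both KO arrays without passing the test (-0.26 ± 0.11; adjusted p = 0.186). Skil, encoding the related SnoN, differed by 0.04 (95% interval -0.20 to 0.27; adjusted p = 0.85). Of the 7 inhibitory SMAD, ubiquitin ligase and corepressor genes together, 4 were higher in KO and 0 lower. The higher share was 57.1%, against 12.9% of all genes above the array median in at least 1 group. This pooled share was not tested, as the members were chosen with earlier results of these data known. The higher count was 2 when KO replicate 1 or KO replicate 2 was omitted, since Smad7 and Tgif1 then did not pass.

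Of the Id target genes, Id1 was lower in KO and Id3 did not pass. Id1 measured 6.23 and 6.19 in KO and 7.01 and 7.08 in WT. The replicates lay close together and the gene was 1.78-fold lower in KO (-0.83 ± 0.10; adjusted p = 0.00285), a call kept whichever array was left out (adjusted p from 0.0107 to 0.0276). Id3 measured 4.09 and 4.49 in KO and 3.83 and 3.73 in WT, above WT on both KO arrays, but its difference of 0.51 ± 0.15 did not pass (adjusted p = 0.0797). Without KO replicate 1 it passed (0.71; adjusted p = 0.0435). Id2, from the list of other responsive genes, was higher in KO at 10.6 and 10.5 against 9.28 and 9.37 in WT (1.24 ± 0.10; adjusted p = 9.18e-04).

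Promoter sequences are shown for Smurf1, Tgif1 and Tgfb2, the 3 called members whose promoter held the SMAD-binding letters CAGACA, and for Smad6, a called inhibitor whose promoter did not. They are the 250 bases before the annotated start, from RefSeq on GRCm38.p6, written 5′ to 3′ on the gene's strand with motif matches in capitals (TGTCTG is CAGACA on the other strand). The Smurf1 window is chr5:144965831-144966080, minus strand, and Smad6 is at chr9:64022060-64022309, minus strand. Tgif1 has 5 annotated starts, of which number 1 (chr17:70853533-70853782, minus strand) and number 4 (chr17:70849791-70850040, minus strand) are shown, and Tgfb2 lies at chr1:186705990-186706239, minus strand.
Smurf1: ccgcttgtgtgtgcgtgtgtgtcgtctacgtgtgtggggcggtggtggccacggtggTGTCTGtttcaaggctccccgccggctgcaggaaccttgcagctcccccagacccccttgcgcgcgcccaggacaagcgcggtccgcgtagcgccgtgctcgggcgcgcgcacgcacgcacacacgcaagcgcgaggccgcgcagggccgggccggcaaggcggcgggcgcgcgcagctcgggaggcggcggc
Smad6: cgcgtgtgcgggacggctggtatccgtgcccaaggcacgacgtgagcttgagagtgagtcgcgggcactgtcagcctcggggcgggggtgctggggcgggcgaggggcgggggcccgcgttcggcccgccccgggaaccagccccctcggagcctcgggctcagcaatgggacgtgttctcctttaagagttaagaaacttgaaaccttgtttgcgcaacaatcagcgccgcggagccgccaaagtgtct
Tgif1 start 1: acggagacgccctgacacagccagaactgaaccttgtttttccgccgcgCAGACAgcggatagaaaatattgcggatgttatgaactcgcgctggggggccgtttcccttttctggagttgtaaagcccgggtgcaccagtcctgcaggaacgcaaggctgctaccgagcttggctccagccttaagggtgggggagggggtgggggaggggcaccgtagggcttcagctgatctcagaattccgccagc
Tgif1 start 4: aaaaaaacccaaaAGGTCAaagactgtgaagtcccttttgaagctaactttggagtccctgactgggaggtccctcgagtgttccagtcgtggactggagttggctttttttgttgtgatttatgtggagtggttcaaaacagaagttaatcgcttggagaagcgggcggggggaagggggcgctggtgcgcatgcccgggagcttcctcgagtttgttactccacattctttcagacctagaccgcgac
Tgfb2: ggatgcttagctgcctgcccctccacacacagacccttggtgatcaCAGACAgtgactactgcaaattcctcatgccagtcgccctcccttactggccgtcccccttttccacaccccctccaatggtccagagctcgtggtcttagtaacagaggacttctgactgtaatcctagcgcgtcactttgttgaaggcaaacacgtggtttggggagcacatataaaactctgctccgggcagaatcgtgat

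Both strands of the 38 such windows of 28 members were searched for 5 motifs, and windows of 9 called members were among them. CAGACA was in 6 of the 38 windows, or 15.8%, against 17.1% of all 32851 promoter windows of the same length. These 6 windows belong to 5 members, 3 of them called, and Tgif1 has several windows. The match in Smurf1 runs from base -193 to -188 relative to the start, those in Tgif1 windows 1 and 2 from -201 to -196 and from -60 to -55, and that in Tgfb2 from -204 to -199. GGCGCC, a GC-rich BMP SMAD motif, was in 9 of the 38 windows (23.7%), of 8 members, 0 of them called, and in 9.59% of all windows. AGGTCA, the core letters bound by nuclear receptors, was in 1 of the 38 windows (2.63%), that of Tgif1 start 4 from -237 to -232, and in 14% of all windows. A direct repeat of AGGNCA with 1 base between the copies, of the form bound by PPARγ with its partner RXR, was in 0 members and 0.338% of windows, and the palindrome GTCTAGAC in 0 members and 0.167%. A match is a description of letters in these windows only.

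Beyond the members, 126 genes of the pathway were listed by role, of which 119 were measured, with 22 higher in KO and 5 lower, or 22.7% called against 14.3% of all genes. Among the 73 above the array median in at least 1 group the share was 35.6%, against 24.9% of all such genes. The 18 other ligand genes measured gave 0 calls by limma over all genes and 4 with an unadjusted p under 0.05. Of these 18, 16 lay below the array median on all 4 arrays, so 0 calls does not show that they were unchanged. The smallest adjusted p were those of Amh (-0.42 ± 0.11, adjusted p = 0.0557) and Bmp3 (-0.31 ± 0.10, adjusted p = 0.0928). Of 10 further receptors and co-receptors, Bambi and Nrp2 were higher and Acvr1c lower, or 30% called against 14.3% of all genes. Among the 5 above the array median in at least 1 group 40% were called, against 24.9% of all such genes. Bambi, a pseudoreceptor without a kinase domain that blocks type I receptors, measured 5.45 and 5.49 in KO and 3.79 and 4.28 in WT. Both KO arrays lay far above the WT arrays (1.43 ± 0.17; adjusted p = 0.00313). Nrp2, a neuropilin that can bind TGF-β, differed by 0.96 ± 0.10 (adjusted p = 0.00189). Acvr1c, encoding ALK7, was below the array median on all arrays and lost its call whichever array was left out (adjusted p from 0.0805 to 0.177).

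Of 15 measured extracellular antagonists, Fstl1 alone passed, or 6.67% called against 14.3% of all genes. Of the 15, 11 lay below the array median on all arrays. Among the 4 above it in at least 1 group 25% were called, against 24.9% of all such genes, so the list's share was not above the background. Fstl1, a secreted follistatin-like glycoprotein that can bind BMP4, measured 8.91 and 8.95 in KO and 3.53 and 3.53 in WT, a difference of 5.40 ± 0.09 (adjusted p = 8.27e-06). The largest difference that did not pass was that of Crim1, a transmembrane BMP antagonist chosen after its values were seen, whose WT arrays stood apart (3.41 and 3.64 in KO, 5.62 and 3.81 in WT; adjusted p = 0.22).

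Some proteases, integrins and other proteins release TGF-β from its latent form, and others tether that form or cross-link it to matrix. Of 18 such genes measured, 7 were higher in KO and 1 lower, or 44.4% called, against 14.3% of all genes. Among the 13 above the array median in at least 1 group 61.5% were called, against 24.9% of all such genes. Mmp14, encoding a membrane metalloprotease that can release latent TGF-β, measured 5.80 and 5.47 in KO and 2.53 and 2.55 in WT. Thbs1, whose product thrombospondin 1 can activate latent TGF-β, measured 10.5 and 10.3 in KO and 2.80 and 3.92 in WT. Mmp2 was higher by 3.22 ± 0.16 (adjusted p = 1.56e-04). The KO arrays of each of these 3 genes lay far above its WT arrays.

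Lrrc32 encodes GARP, which tethers latent TGF-β to the cell surface, and it measured 4.23 and 3.80 in KO and 2.59 and 2.54 in WT. The difference of 1.45 ± 0.16 passed (adjusted p = 0.00211), with both WT values below the array median. Plau (2.01 ± 0.23), encoding the plasminogen activator urokinase, Itgb5 (0.67 ± 0.10) and Itgav (0.59 ± 0.14), encoding the subunits of the TGF-β-binding integrin αvβ5, were the other higher genes. Itgav passed narrowly (adjusted p = 0.045) and did not pass when KO replicate 1 (0.0875), KO replicate 2 (0.209) or WT replicate 2 (0.145) was left out. Itgb5 (adjusted p = 0.00773) did not pass with KO replicate 2 left out (0.0566). Tgm2, the transglutaminase that cross-links latent TGF-β to matrix, was lower (9.27 and 9.33 in KO, 10.2 and 10.1 in WT; -0.85 ± 0.10; adjusted p = 0.00285). Lrrc32, Plau, Itgb5 and Itgav were chosen after their values were seen.

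**Figure D3:**
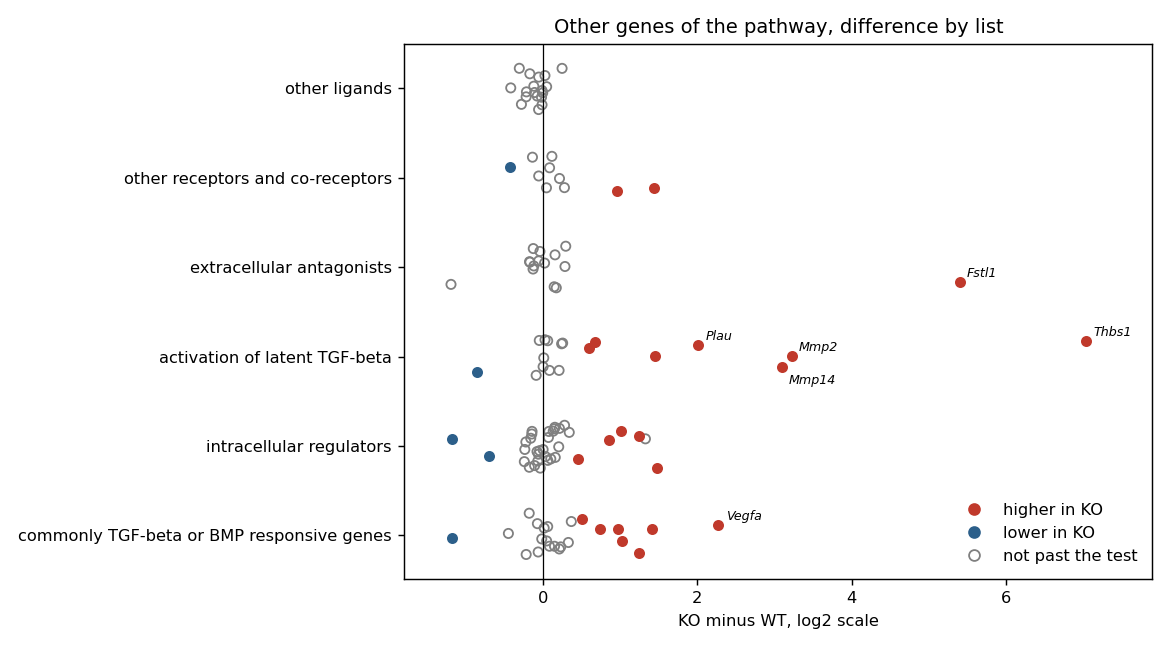
Difference between KO and WT on the log2 scale for the 119 measured genes of the other pathway lists, 1 point a gene, with filled red for genes called higher in KO, filled blue for genes called lower and open grey for the rest; points are spread vertically only to separate them. The other ligands cluster around 0, with 16 of the 18 below the array median on all arrays. The list of latent TGF-β activation reaches 7.04 at Thbs1.

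Of 35 intracellular regulators, 5 were higher and 2 lower, or 20% called. Of these, 34 were above the array median in at least 1 group, and 20.6% of them were called against 24.9% of all such genes, so the list's share was not above the background. Nedd4l, a ubiquitin ligase for activated Smad2 and Smad3, measured 5.69 and 5.59 in KO and 4.05 and 4.27 in WT (1.48 ± 0.12; adjusted p = 7.09e-04). Runx3, a SMAD-binding transcription factor, was higher by 1.25 ± 0.12 (adjusted p = 0.00133). Ppp1r15a, whose product joins Smad7 and a phosphatase at the type I receptor, measured 7.37 and 7.58 in KO and 6.39 and 6.56 in WT (adjusted p = 0.00341). Zeb1, a SMAD-interacting repressor, was lower (4.76 and 4.90 in KO, 6.01 and 6.02 in WT; -1.19 ± 0.10; adjusted p = 9.86e-04), as was Tab3, an adaptor of the kinase TAK1 (-0.70 ± 0.13; adjusted p = 0.0176). Tab3 did not pass when KO replicate 1 (0.109), KO replicate 2 (0.0694) or WT replicate 1 (0.063) was left out. The higher count was 3 with either KO array left out, and the lower count 1 with either KO array or WT replicate 1 left out.

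Genes commonly responsive to TGF-β or BMP had 7 of 23 measured higher in KO and 1 lower, or 30.4% and 4.35%, against 7.41% and 6.86% of all genes. Among the 15 above the array median in at least 1 group 53.3% were called, against 24.9% of all such genes. Besides Id2, the higher genes with the smallest p were Pdgfb, a growth factor gene (5.20 and 4.93 in KO, 3.75 and 3.55 in WT; adjusted p = 0.00138), and Myc, which TGF-β represses in epithelial cells (8.49 and 8.64 in KO, 7.52 and 7.58 in WT; adjusted p = 0.00179). Klf10, an early response gene of TGF-β, was lower at 7.36 and 7.19 in KO and 8.81 and 8.12 in WT (-1.18 ± 0.22; adjusted p = 0.0181), and did not pass with KO replicate 1 (0.0857) or KO replicate 2 (0.116) left out. Tgfbi, a matrix protein gene named for its induction by TGF-β, did not pass (10.1 and 10.2 in KO, 10.4 and 10.3 in WT; adjusted p = 0.298). The list's higher count was 3 with KO replicate 1 left out and 4 with KO replicate 2 left out. Tgfbi was chosen after its values were seen.

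Pmepa1, a TGF-β-induced regulator of SMAD signalling, was chosen after its values were seen because its WT arrays stood far apart. It measured 8.28 and 7.92 in KO and 8.59 and 4.96 in WT (adjusted p = 0.503). Without WT replicate 1 the difference was 3.14 (adjusted p = 3.00e-04), and without WT replicate 2 it was -0.49 (adjusted p = 0.163), so the sign rested on a single array.

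Several members are also known from endothelium, fibroblasts or platelets, and markers of these cells were read on the same arrays. Called shares were 9.09% of endothelial, 0% of fibroblast and mural and 25% of platelet markers, against 14.3% of all genes. Of 11 endothelial markers, Vwf was higher in KO (7.17 and 7.29 in KO, 6.09 and 6.04 in WT; adjusted p = 0.00103) and 10 did not pass, while 3 had an unadjusted p under 0.05. The list's mean level was 3.02 to 3.14 in KO and 3.02 to 3.18 in WT. The 10 that did not pass differed by -0.38 (Ptprb) to 0.04 (Cdh5), and for Emcn, Pecam1, Ptprb and Esam both KO arrays lay below both WT arrays. Of the defining markers, Pecam1 measured 2.80 and 2.90 in KO and 3.06 and 3.28 in WT (-0.32; adjusted p = 0.143), and Kdr and Tek were below the array median on all 4 arrays. Of 10 fibroblast and mural markers 0 were called by limma and 1 had an unadjusted p under 0.05, with a mean level of 2.73 in both KO arrays and 2.71 to 2.80 in WT. Of 4 measured platelet markers, Pf4 was higher, at 4.50 and 3.97 in KO and 3.52 and 3.31 in WT (adjusted p = 0.0353), and did not pass when KO replicate 1 (0.108), WT replicate 1 (0.0634) or WT replicate 2 (0.111) was left out.

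Markers of other macrophages and monocytes differed between the groups. Called shares were 72.7% of interstitial macrophage, 75% of monocyte and 46.2% of alveolar macrophage markers. For neutrophil and epithelial markers they were 28.6% and 20%. Over all genes 14.3% were called, and 24.9% of those above the array median in at least 1 group. Of 11 interstitial macrophage markers, 8 were higher in KO, with a mean level of 5.55 to 5.64 in KO and 3.32 to 3.36 in WT. C1qc measured 7.42 and 7.08 in KO and 2.39 and 2.42 in WT. Lyve1 and Ms4a7, among the higher genes, lost their calls whichever array was left out. Of 8 monocyte markers 5 were higher and 1 lower, with a mean level of 7.10 to 7.14 in KO and 6.62 to 6.78 in WT. Their higher count was 2 with KO replicate 1 left out, 1 with KO replicate 2 left out and 3 with WT replicate 1 left out. Of 13 alveolar macrophage markers 6 were lower and 0 higher, with a mean level of 7.18 to 7.31 in KO and 9.16 to 9.75 in WT. Of the 7 that did not pass, Marco measured 3.04 and 3.37 in KO and 7.22 and 4.43 in WT. Fabp4, also not called, measured 4.19 and 4.45 in KO and 7.57 and 5.21 in WT. The WT arrays of both genes stood far apart. Car4, Itgax, Plet1, Chil3 and Atp6v0d2 differed by -0.315 (Car4) to 0.24 (Itgax). Mrc1, among the lower genes, lost its call whichever array was left out. Of 7 neutrophil markers, S100a8 and Mmp8 were higher, and Mmp8 did not pass with either KO array left out. Of 10 epithelial markers, Ager and Cldn18 were lower, and Cldn18 did not pass with KO replicate 2 left out. Of 7 T and NK cell, 5 B cell and 6 eosinophil markers, 0 were called by limma, and 1, of the eosinophil list, had an unadjusted p under 0.05. The part of these other macrophages, monocytes and neutrophils in the differences of Eng, Inhba, Ltbp3 and the other members was not tested.

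The calls differed in how much they rested on single arrays. Of the 13 called members, Eng, Acvr1b and Smurf1 passed under all 13 alternative settings, and together with Smad1, Smad6 and Id1 they passed whichever array was left out. In a fit without an array, 1 group holds a single array, which is assumed to vary like the other group.

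**Figure D4:**
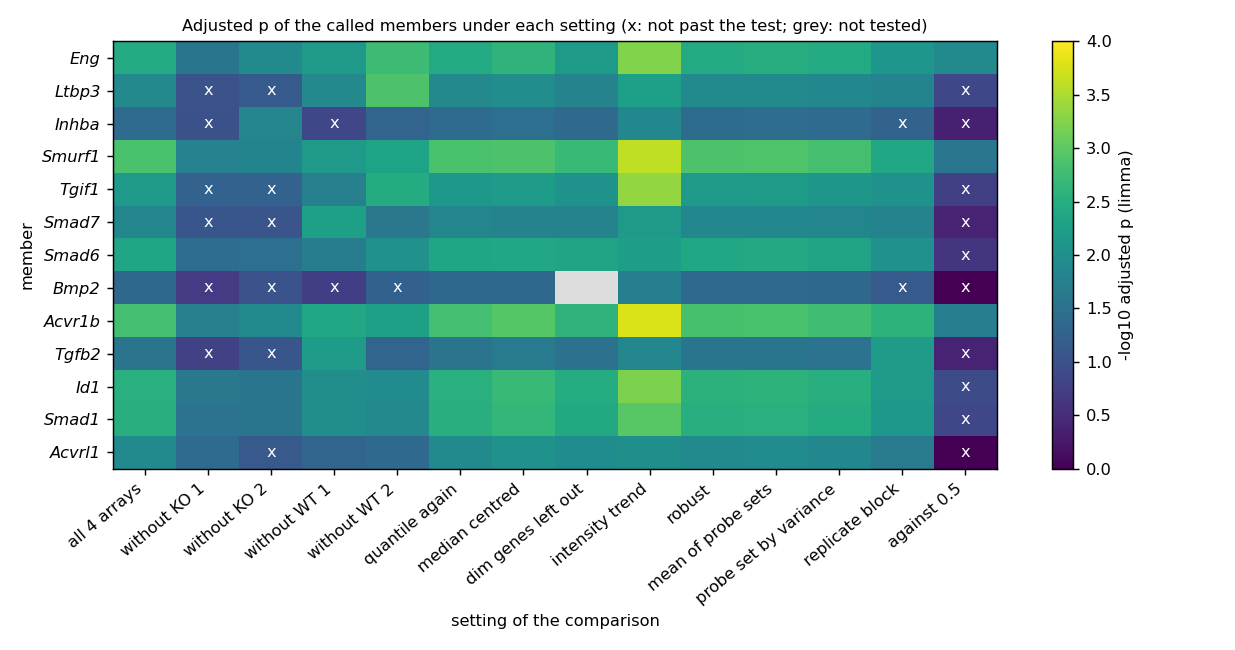
Adjusted p of the 13 called members under each setting, as colour on a -log10 scale, with a cross where the gene did not pass and grey where it was not tested; rows are genes and columns settings. The rows of Eng, Smurf1 and Acvr1b hold no cross, and Bmp2 has the most.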

How the data were processed

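RNA of sorted alveolar macrophages was hybridised to 4 Affymetrix arrays, 2 from KO and 2 from WT mice, each from cells pooled from 2 mice. The deposited values were log2 expression per probe set, summarised by the authors using RMA under R version 2.15.2, as the submitters' processing notes list. No source used here gives the build or the RMA settings. The table held 28371 probe sets from 0.96 to 12.1. All arrays share 1 distribution with a median of 3.14, so a change of most transcripts in 1 direction would not show, and low values understate fold changes. No measure of detection was used here, and the number of arrays limits the precision. Across probe sets, replicates correlated at 0.996 in KO and 0.995 in WT, and arrays of different genotype at 0.974 to 0.98.

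Probe sets were named from the platform annotation, with symbols checked by Entrez identifier against RefSeq (0 changed). Of these, 21158 had 1 gene, 1881 several and 5332 none listed. The brightest probe set per gene left 18782 genes. The 2 genotypes were tested in limma 3.58.1 (R 4.3.3), with group as the only term, empirical Bayes moderation (2 residual and 4.16 prior degrees of freedom), a two-sided test and Benjamini-Hochberg adjustment over all genes. The procedure was tested on simulated data. P-values set the difference against the spread between 2 pools a group, moderated by the spread shared over all genes. Intervals are 95% intervals of the limma fit.

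The members and lists were chosen with earlier results of these data known, so no list was tested. All members are accounted for. Members past the test are given per array, as are those whose arrays did not overlap and differed by at least 0.5. Up to 3 genes a direction with the smallest p are named from each other list, and any further gene was picked once its values were known. The alternatives were re-normalization, median centring, a dim-gene filter, an intensity trend, robust variances, other probe set rules, each array left out, a replicate block and a test against a difference of 0.5. For the other lists they were chosen after seeing the data. Promoters came from RefSeq.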

Additional observations from a re-analysis of the deposited data

How the results depend on the processing

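Of 459 comparisons of the 36 members under 13 alternatives, 413 kept direction and side of the threshold, 27 lost a call and 3 gained one, and 16, all of genes not past the test, changed sign. The counts of members stood at 8 higher and 5 lower under re-normalization, median centring, the dim-gene filter, the intensity trend, robust variances and both other probe set rules. With each array left out in turn, they ran from 4 to 7 higher and 3 to 5 lower. Against a difference of 0.5 they were 2 and 1. Equal counts did not always mean the same genes. Under the dim-gene filter Bmp2 was not tested and Smad3 was called higher. With WT replicate 1 left out, Inhba and Bmp2 lost their calls and Bmpr1a was called higher. With KO replicate 1 left out, the higher genes included Id3. Over all genes the counts ran from 726 to 1227 higher and 647 to 1057 lower with an array left out, and were 498 and 336 against a difference of 0.5. The members' median of 0.04 moved to 0.005 with median centring and ran from 0.01275 to 0.109 with an array left out. Median centring gave 1307 higher and 1461 lower genes. Sign changed for Tgfb3 with median centring (-0.02625). With an array left out, sign also changed for Tgfb1 (-0.0685 to 0.1325), Tgfb3 (-0.006 to 0.015), Bmp4 (-0.095 to 0.088), Tgfbr1 (-0.046 to 0.13), Acvr2a (-0.1545 to 0.1375), Ltbp1 (-0.186 to 0.013), Ltbp2 (-0.21 to 0.207), Smad9 (-0.0845 to 0.0345), Skil (-0.0045 to 0.0835), Pparg (-0.124 to 0.01) and Pmepa1 (-0.487 to 3.14). The cause of these shifts was not tested, beyond the fewer arrays in each fit. The arrays share replicate numbers, but the labels give no shared litter, day or batch, and same-numbered arrays did not deviate together (r = -0.0173 over genes). With the replicate block 6 members were higher and 5 lower, against 1309 and 1168 of all genes. With the block, Inhba (adjusted p = 0.0534) and Bmp2 (adjusted p = 0.0738) lost their calls, and no other member's call changed. Near the bottom of the scale, as for Bmp2, Bmp4 and Tgfb3, RMA values compress changes.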
